A study of Mus musculus with 16 samples.

Results

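The genes described here encode the replisome, the machinery that opens and copies DNA in S phase: the origin recognition complex, the CDC7-DBF4 kinase, CDC45 and GINS, the DNA polymerases alpha, delta and epsilon, the sliding clamp PCNA, its loader replication factor C, replication protein A, and factors that join Okazaki fragments and place histones behind the fork. The list held 35 genes. A gene was measured by the probe sets annotated to its symbol alone, older symbols included, and was represented by the probe set with the highest mean log2 intensity over all tumors. This gave 32 measured members, with 52 probe sets in all, among the 12393 genes that had a probe set of their own. Gins2, Gins3 and Chaf1a had none, so their transcripts are not analysed here.

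The tumors came from mice that carried one p53R172H∆g allele, which encodes the p53 protein change R172H, and one K-rasLA1 allele, a latent mutant K-ras that becomes active by somatic recombination. All 16 tumors shared both alleles, and no control without them is among the samples used here. There were 7 primary lung adenocarcinomas, 1 from each of 7 mice, and mice 1 to 4 also gave 9 metastases: 2 of the body wall and 1 of the liver in mouse 1, 1 of the liver in mouse 2, 1 each of the body wall, the heart and a mediastinal lymph node in mouse 3, and 1 each of a mediastinal lymph node and the parietal pleura in mouse 4. Mouse 6 was female and the others were male, and the ages of the animals were not given in the sources used here. Each tumor was hybridised once, so metastases of 1 mouse are separate tumors that share an animal and a primary tumor. The number of mice with metastases, 4, limits the precision.

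Median intensity per array ran from 75 to 85.5, and pairs of arrays correlated at 0.900 to 0.969 over all probe sets. Of the 10 markers of lung adenocarcinoma epithelium none was at the floor of 1 in every tumor, and their summed intensity was 16714 to 24562 in the 7 primary tumors and 9355 to 17643 in the 9 metastases. In limma over the 13 tumors of mice 1 to 4, with the mouse as a block, all 10 had a log2 difference below 0. The median was -1.35, and 6 had an unadjusted p under 0.05. Of all genes, 7.11% were lower at that p. Nkx2-1, Cdh1, Krt8 and Krt18, at -0.69, -0.72, -0.39 and -0.17, did not reach it. The mean intensity of Krt18 was 3253 in the metastases and 3116 in the 7 primary tumors.

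Replication starts when the origin recognition complex marks an origin and helps load the MCM helicase. The kinase CDC7 with its activator DBF4 then lets CDC45 and GINS join MCM, polymerase alpha-primase lays down primers, replication factor C loads PCNA on them, and polymerases epsilon and delta extend the leading and lagging strands while replication protein A covers the exposed single strand. Many of these genes are transcribed under E2F control as cells enter S phase, and PCNA is widely used as a marker of proliferating cells in tumors.

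Replisome transcripts tended to be more abundant in the metastases than in the primary tumors of the same mice, by modest amounts and mainly in mice 1 and 2. The median of the members' mean log2 ratios was 0.30 and 0.55 in mice 1 and 2, and -0.006 and 0.07 in mice 3 and 4. A limma model with the mouse as a block was fitted to the 13 tumors from mice 1 to 4 (4 primary tumors, 9 metastases). In that fit 28 of the 32 members had a log2 difference above 0, as had 5935 of all 12393 genes. The other 4 members, Orc2, Pold3, Rfc2 and Rfc3, had one below 0. The median log2 difference was 0.26 over the members and -0.01 over all 12393 genes. The members ran from -0.24 for Rfc3 to 1.10 for Rfc4, and the dimmer probe sets of these genes gave 0.43 and 0.18. None passed an adjusted p of 0.05 after Benjamini-Hochberg adjustment in limma over 22626 probe sets, which 0.371% of all genes did. The lowest adjusted p among the members was 0.158, for Pola1. The methods' t-test over the 9 ratios, which takes metastases of 1 mouse as independent pairs, put 2 members, Orc4 and Pole2, past that threshold, and 3.96% of all genes. The limma fit to the 13 tumors also counts metastases of 1 mouse as separate replicates, so its p-values do not measure the spread between mice. At an unadjusted p under 0.05, 11 members were higher and 0 were lower, against 4.37% and 7.11% of all genes. In RNA from whole tumors, fewer cells of a type and less RNA per cell cannot be told apart.

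The 11 members higher at an unadjusted p under 0.05 came from 8 of the 10 groups of members: Orc4, Dbf4, Cdc45, Gins1, Pola1, Prim1, Pole2, Pcna, Rfc4, Rpa1 and Rpa3. Cdc45 and Pola1 kept an unadjusted p under 0.05 in all 12 fits that each left out 1 mouse or 1 metastasis. The count of such members depended on mice 1 and 2: it was 4 without mouse 1 and 5 without mouse 2. The share of all genes in those fits is not given here. In a fit to all 16 tumors, with the mouse as a random block, 29 members were higher, as were 6364 of all 12393 genes. Of the 29, 13 had an unadjusted p under 0.05 in limma, against 6.12% of all genes. The adjusted threshold was passed by 1 member, against 1.46% of all genes.

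**Figure D1:**
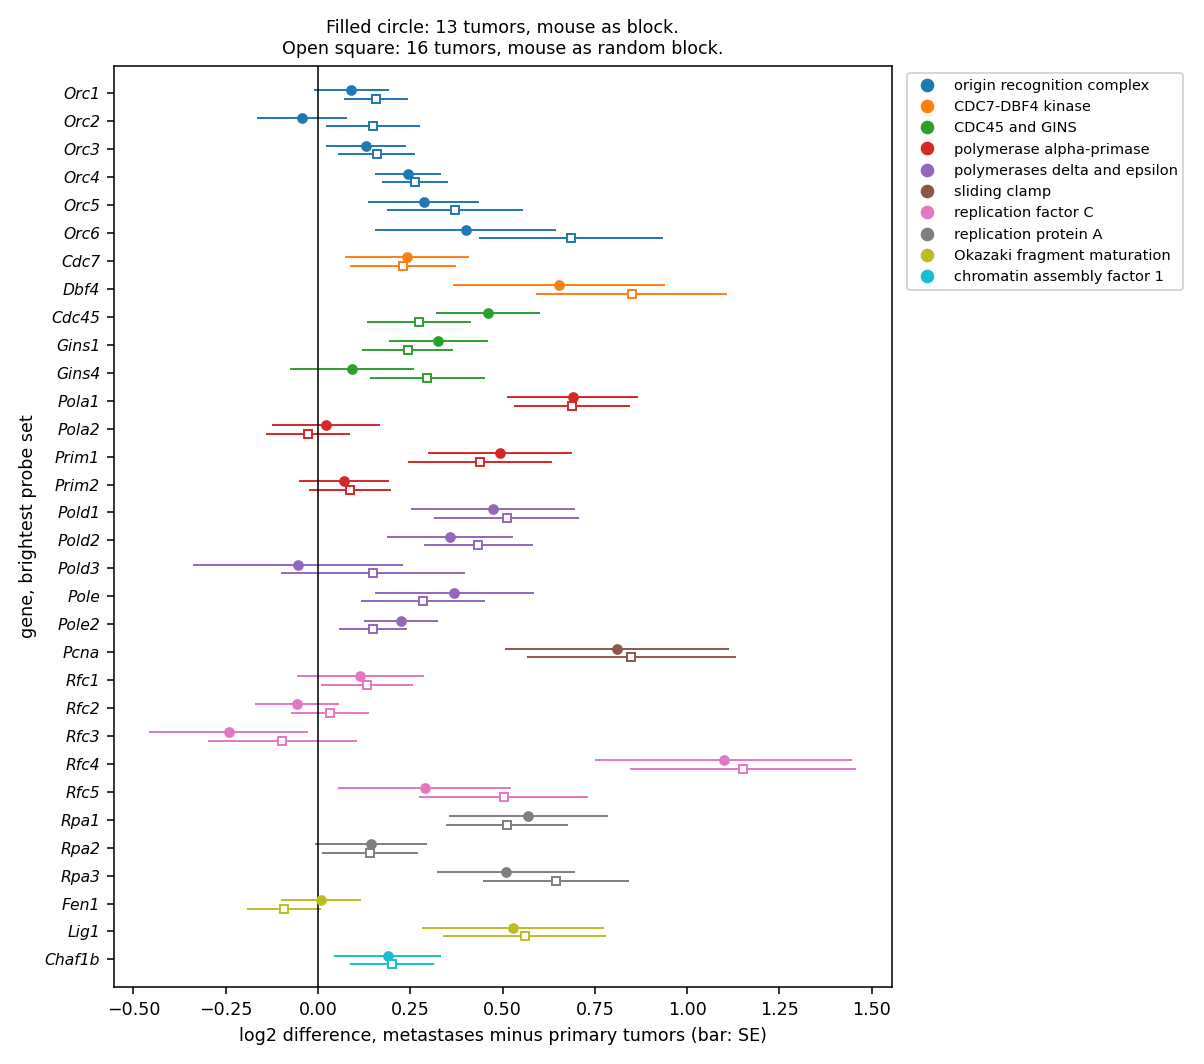
Log2 difference between metastases and primary tumors for each of the 32 measured members on the x axis, with its standard error as a bar, coloured by group; filled circles are the 13 tumors of mice 1 to 4 and open squares all 16 tumors. Most points lie to the right of 0, with Rfc4, Pcna and Pola1 farthest right among the filled circles and Rfc3 farthest left.

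The subunits of the origin recognition complex had small differences, the largest in Orc6. The 6 members of the complex had a median log2 difference of 0.19 in the 13 tumors, and 5 of the 6 were above 0. Orc4, an ATPase-fold subunit of the ring (1453804_a_at), had a lowest, median and highest intensity of 169, 201 and 213 among the 7 primary tumors and 199, 244 and 292 among the 9 metastases. The ranges overlapped, but each of the 9 metastases was above its own primary tumor, which held for 4 members and for 2.04% of all genes. Its log2 difference was 0.24 ± 0.09 (SE, limma unadjusted p = 0.0218, adjusted p = 0.329). The other 2 probe sets of Orc4, both dimmer, gave 0.11 and 0.12, with 5 and 6 of 9 metastases higher and neither past an unadjusted p of 0.05. Orc5 had a larger difference than Orc4, at 0.29 ± 0.15 (SE, limma unadjusted p = 0.0857, adjusted p = 0.526). Of the 9 metastases 8 exceeded their own primary tumor in Orc5. Orc1, the largest subunit, and Orc2 and Orc3 had differences of 0.09, -0.04 and 0.13, none past an unadjusted p of 0.05.

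Orc6, the subunit that stands outside the ring, varied most of the 6, over 2.29 log2 units across the 16 tumors against 1.86 for Orc5. Mouse 1 metastases held 103, 134 and 89.0 and the mouse 2 metastasis 143, but the 5 metastases from mice 3 and 4 held just 51.5 to 61.2. Primary tumors ranged from 54.9 to 67.4 in mice 1 to 4, and had 29.2, 29.1 and 35.8 in mice 5, 6 and 7. Thus the mouse 1 and 2 metastases stood above every primary tumor, the others were each below their own primary tumor, and the 3 primary tumors from mice with no metastasis here were the lowest of the 16. The share of all genes with such a split is not given here. Its log2 difference over the 13 tumors was 0.40 ± 0.24 (SE, limma adjusted p = 0.598).

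Of the kinase that fires loaded origins, the brightest probe set of the activating subunit Dbf4 was higher at an unadjusted p under 0.05, and that of the catalytic subunit Cdc7 was not, while a dimmer Cdc7 probe set was. Dbf4 (1418334_at) had a lowest, median and highest intensity of 28.1, 38.3 and 71.2 among primary tumors and 32.1, 80.9 and 146 among metastases. Its ranges overlapped, 8 of 9 metastases exceeded their own primary tumor, and the exception was the parietal pleura metastasis of mouse 4. The log2 difference was 0.65 ± 0.29 (SE, limma adjusted p = 0.425), and a dimmer probe set of the gene gave -0.10. For Cdc7 the brightest probe set gave 0.24 and the dimmer one 1.10 ± 0.30 (SE, limma unadjusted p = 0.00440, adjusted p = 0.184). That dimmer probe set lay below 24.3, the lower quartile of the whole table, in 10 of the 13 tumors.

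The helicase partners Cdc45 and Gins1 were higher in the metastases, at an unadjusted p under 0.05, while Gins4, another subunit of the GINS ring, had a difference of 0.09. Cdc45 (1416575_at) had primary tumor intensities of 72.0, 53.3, 70.1 and 75.8 for mice 1 to 4. It lay between 78.3 and 116 in the 9 metastases, so that no metastasis overlapped with those 4 tumors. The share of all genes with that separation is not given here. The unmatched primary tumors of mice 5, 6 and 7 held 96.6, 121 and 83.6, and with them the groups overlapped. The difference of 0.46 ± 0.14 over the 13 tumors (SE, limma adjusted p = 0.230) was 0.27 ± 0.14 over all 16 (adjusted p = 0.455). Gins1, the subunit also called PSF1, had a difference of 0.33 ± 0.13 (SE, limma adjusted p = 0.390) and was higher in 8 of 9 metastases, and its largest ratio, 0.84 on the log2 scale, was in the parietal pleura metastasis of mouse 4.

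Polymerase alpha-primase, the enzyme that starts every new strand, gave the member with the clearest separation. Pola1, its catalytic DNA polymerase subunit (1419397_at), had primary tumor intensities of 37.0, 34.7, 35 and 36.8 for mice 1 to 4, while mice 5 to 7 gave 29.0, 29.0 and 42.3. In the metastases it was at 54.6, 63.5 and 55.2 in mouse 1, 107 in mouse 2, 42.5, 48.0 and 53.7 in mouse 3, and 48.8 and 42.7 in mouse 4. All 9 metastases were therefore above all 7 primary tumors, though the lowest of them by only a small margin over the primary tumor of mouse 7. Pola1 was the single member with this separation, which 0.0968% of all genes showed.

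Pola1 was higher by 0.69 ± 0.18 on the log2 scale over the 13 tumors (SE, limma unadjusted p = 0.00296, adjusted p = 0.158), a 1.61-fold difference. Over all 16 tumors the estimate was 0.69 ± 0.16 and Pola1 rose at an adjusted p of 0.0431 in limma, the one member to do so. That call was at the edge of the threshold: when each of the 16 tumors was left out in turn, its adjusted p ran from 0.0382 to 0.105 and stayed under 0.05 in 3 of the 16 fits, those without the liver metastasis of mouse 2, the body wall metastasis of mouse 3 or the parietal pleura metastasis of mouse 4. Over the other settings tried on the 13-tumor comparison, the 16 tumors among them, its adjusted p ran from 0.0431 to 0.473.

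The partners of Pola1 did not follow it evenly. Prim1, the catalytic primase subunit, was at 218, 194 and 146 in the mouse 1 metastases and 224 in that of mouse 2, against 82.5 to 103 in all 7 primary tumors, but lay at 78.0 to 107 in the metastases of mice 3 and 4. Its log2 difference was 0.49 ± 0.20 (SE, limma adjusted p = 0.368). The regulatory subunits Pola2 and Prim2 had differences of 0.02 and 0.07.

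The replicative polymerases had their highest ratios mostly in metastases from mice 1 and 2. Pole2, the small subunit of the leading-strand polymerase epsilon (1427094_at), was the leading member of this group, with a lowest, median and highest intensity of 162, 201 and 216 among the primary tumors and 179, 215 and 242 among the metastases. The ranges overlapped while all 9 metastases exceeded their own primary tumor, by 0.07 to 0.45 on the log2 scale. The difference was 0.22 ± 0.10 (SE, limma unadjusted p = 0.0497, adjusted p = 0.439). Pold1 and Pold2, the catalytic and second subunits of polymerase delta, and Pole, the catalytic subunit of polymerase epsilon, had larger but more variable differences of 0.47, 0.36 and 0.37, none past an unadjusted p of 0.05. A dimmer probe set of Pold1 gave 1.10 ± 0.41 (SE, limma unadjusted p = 0.0235, adjusted p = 0.335), and lay below the lower quartile of the whole table in 8 of the 13 tumors. Pold3, an accessory subunit of polymerase delta, was at -0.05. Pold4, Pole3 and Pole4, subunits of these polymerases that are not on the member list, were at -0.03, -0.06 and 0.11.

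Pcna, the ring that tethers polymerases to DNA (1417947_at), showed a wide contrast between mice. Its primary tumor intensities were 479, 431, 626 and 385 for mice 1 to 4, while mice 5 to 7 gave 442, 527 and 340. Mouse 1 metastases reached 1516, 1789 and 1024 and the mouse 2 metastasis 1569. Mouse 3 metastases had 552, 650 and 791, and mouse 4 metastases had 365 and 416. All 4 metastases of mice 1 and 2 lay above every other tumor, whereas those of mouse 4 lay within the range of the primary tumors. The share of all genes with that split is not given here. The log2 difference over the 13 tumors was 0.81 ± 0.30, a 1.75-fold difference (SE, limma unadjusted p = 0.0232, adjusted p = 0.334).

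**Figure D2:**
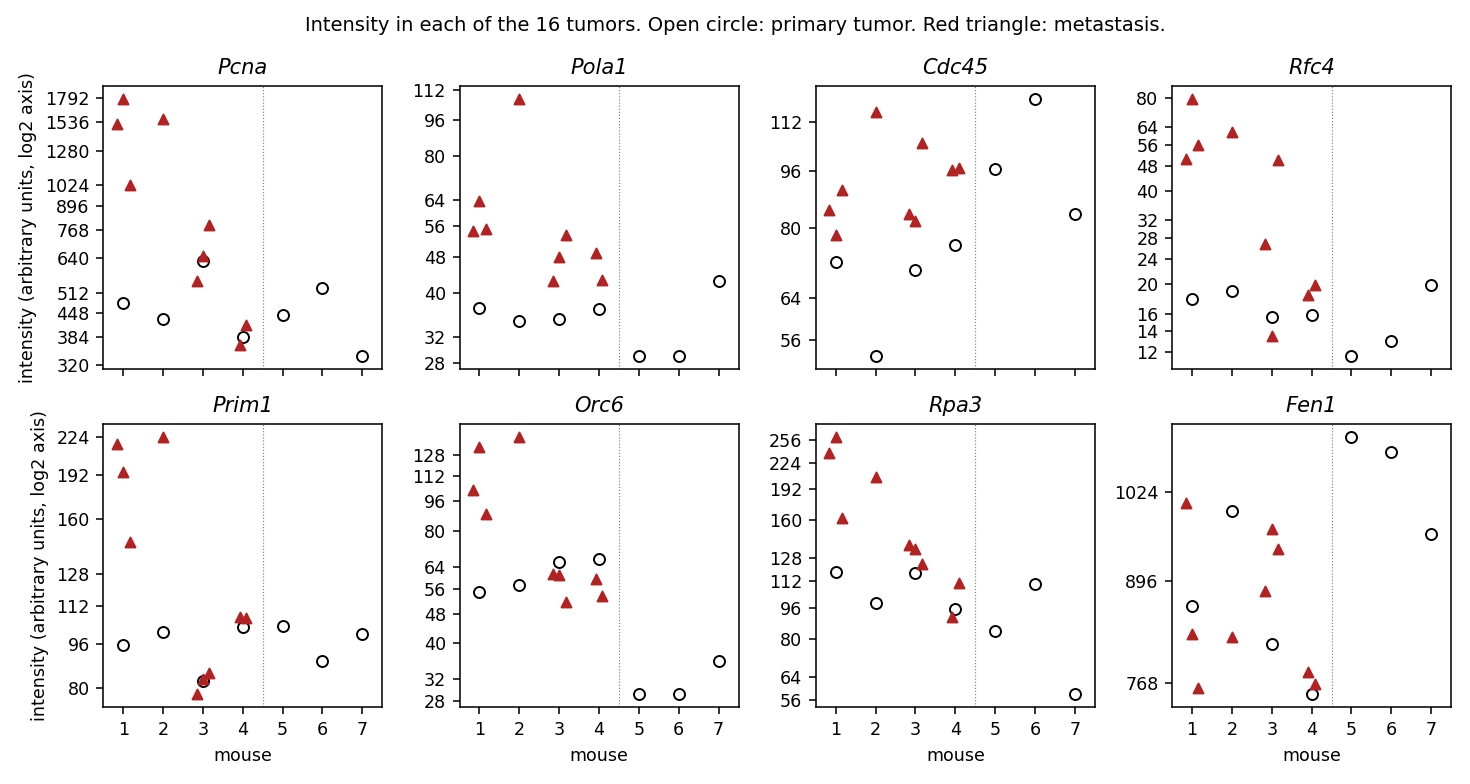
Intensity of 8 members on a log2 axis in each of the 16 tumors, by mouse on the x axis; open circles are primary tumors, red triangles metastases, and mice 5 to 7 to the right of the dotted line gave primary tumors alone. For Pcna, Prim1 and Orc6 the 4 metastases of mice 1 and 2 lie above all other tumors, a split whose share of all genes is not given here. Pola1 is above every primary tumor in all 9 metastases, and Fen1, by its brightest probe set, overlaps throughout.

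The loader of PCNA, replication factor C, was the least uniform group. Its 5 members had a median log2 difference of 0.11 and ran from -0.24 to 1.10. Rfc4, a small subunit of the loader (1438161_s_at), had a lowest, median and highest intensity of 11.6, 15.8 and 19.8 among the primary tumors and 13.5, 50.1 and 79.3 among the metastases. It was thus dim, since every primary tumor lay below 24.3, the lower quartile of the whole table, and 8 of 9 metastases exceeded their own primary tumor, the heart metastasis of mouse 3 being the exception. The log2 difference was 1.10 ± 0.35 (SE, limma unadjusted p = 0.0102, adjusted p = 0.251), and the other probe set of Rfc4 gave 0.18. The letter s in the name of the brighter one marks a design whose probes match more than 1 transcript. Rfc5 exceeded its own primary tumor in the 4 metastases from mice 1 and 2 and was below it in the other 5, with a difference of 0.29. Rfc1, the large subunit, and Rfc2 were at 0.11 and -0.06. Rfc3 was at -0.24 by its brightest probe set and 0.43 by a dimmer one, neither past an unadjusted p of 0.05.

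Replication protein A, the trimer that protects single-stranded DNA, was higher in its large and small subunits at an unadjusted p under 0.05. Rpa3 (1448938_at) had a lowest, median and highest intensity of 57.8, 98.9 and 118 among the primary tumors and 90.9, 139 and 261 among the metastases. Of the 9 metastases 8 exceeded their own primary tumor, although the groups overlapped. The log2 difference was 0.51 ± 0.19 (SE, limma adjusted p = 0.322). Rpa1, the large DNA-binding subunit, was at 0.57 ± 0.22 (SE, limma adjusted p = 0.341) by its brightest probe set and 0.03 by another. The mouse 2 metastasis had a Rpa1 ratio of 0.13 on the log2 scale, well below the 0.74 to 1.48 of the mouse 1 metastases, and Pole showed the same, with 0.12 against 0.56 to 1.15. Rpa2 was at 0.14 by its brightest probe set and 0.72 ± 0.32 by a far dimmer one, just under an unadjusted p of 0.05 (SE, limma adjusted p = 0.439). That dimmer one lay below the lower quartile of the whole table in 12 of the 13 tumors.

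The genes that finish the lagging strand include Lig1, the ligase that seals Okazaki fragments, and Fen1, the flap endonuclease. They differed by their brightest probe sets, but a dimmer Fen1 probe set gave a difference like that of Lig1. Lig1 (1416641_at) had a lowest, median and highest intensity of 80.2, 102 and 138 among the primary tumors and 89.1, 170 and 308 among the metastases. The groups overlapped, with 7 of 9 metastases above their own primary tumor and the mouse 2 metastasis highest of all. The log2 difference was 0.53 ± 0.25 (SE, limma unadjusted p = 0.0581, adjusted p = 0.462). Fen1 gave 0.01 ± 0.11 by its brightest probe set, whose name carries the letter x for probes that can bind other sequences, and 0.53 ± 0.22 by a dimmer one (SE, limma unadjusted p = 0.0392, adjusted p = 0.402). Chaf1b, a subunit of the chromatin assembly factor that places histones on new DNA (1423877_at), had a lowest, median and highest intensity of 137, 156 and 193 among the primary tumors and 148, 193 and 229 among the metastases, and a difference of 0.19 ± 0.15 (SE, limma adjusted p = 0.691).

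Set against their own primary tumors, the metastases of mice 1 and 2 had higher replisome transcripts on the whole, and those of mice 3 and 4 had medians near 0. The median log2 ratio over the 32 members was 0.34 and 0.44 in the body wall metastases and 0.25 in the liver metastasis of mouse 1, and 0.55 in the liver metastasis of mouse 2. For mouse 3 the body wall, heart and lymph node metastases gave -0.04, 0.06 and 0.04, and for mouse 4 the lymph node and pleura gave 0.05 and 0.09. The median over all genes lay between -0.08 and 0.07 in the 9 metastases. Members above their own primary tumor numbered 27, 30 and 26 of 32 in mouse 1 and 28 in mouse 2, and 15, 20 and 17 in mouse 3 and 18 and 20 in mouse 4. The share of all genes above their own primary tumor was 42.8% to 55.9% in the 9 metastases. In mouse 4 it was 48.3% in the lymph node and 43.9% in the pleura, where 56.3% and 62.5% of the members were higher. In the body wall metastasis of mouse 3 it was 49.6%, and 46.9% of the members were higher. These are ratios of 1 array to 1 array and carry no test. Liver metastases came from mice 1 and 2 alone and lymph node metastases from mice 3 and 4 alone, so that for those sites mouse and site cannot be told apart.

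**Figure D3:**
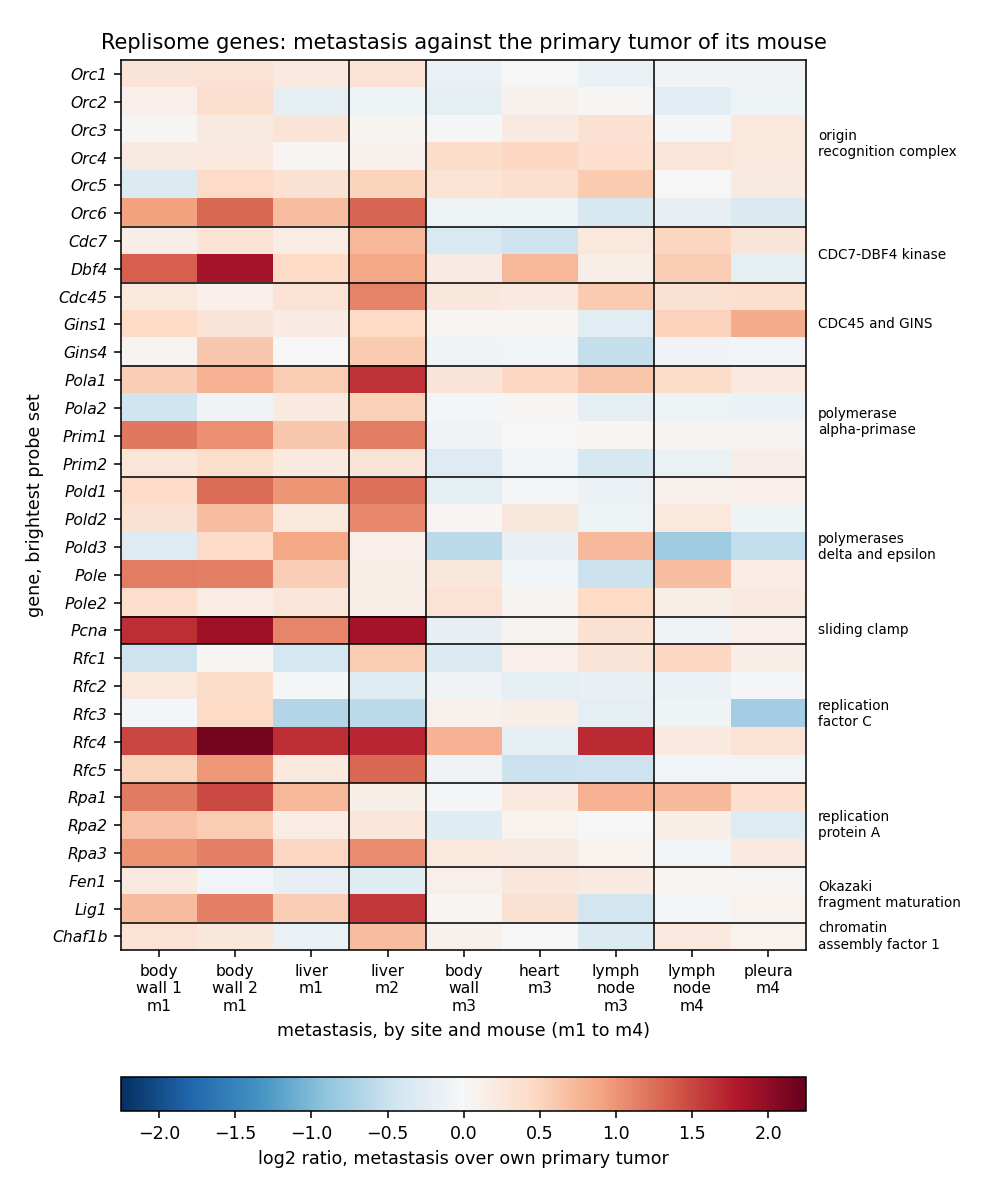
Log2 ratio of each of the 9 metastases, in columns by mouse, to the primary tumor of its mouse, for the 32 members in rows by group; red is higher in the metastasis and blue lower. Red fills most rows in the 4 columns of mice 1 and 2, with Pcna and Rfc4 darkest, while the 5 columns of mice 3 and 4 are pale apart from single cells such as Rfc4 in the lymph node of mouse 3.

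A limma F test asked whether the difference between metastases and primary tumor varied between mice more than metastases of the same mouse varied. It picked out 4 of the 32 members at an unadjusted p under 0.05, against 6.86% of all genes. They were Orc6, Pcna, Pola1 and Prim1, and none of them passed adjustment, with limma adjusted p of 0.534, 0.580, 0.633 and 0.676, while 28 of all 22626 probe sets did. The mean log2 ratios of mice 1 to 4 were 1.55, 1.86, 0.07 and 0.02 for Pcna, 0.94, 1.15, -0.01 and 0.06 for Prim1, and 0.97, 1.31, -0.19 and -0.26 for Orc6. These 3 genes split mice 1 and 2 from mice 3 and 4, and the share of all genes that do so is not given here. Pola1 was at 0.64, 1.63, 0.45 and 0.31, with mouse 2 apart from the rest. Each mouse has 1 primary tumor, so the test takes that tumor to vary like the metastases. In all, 12 members had a mean ratio above 0 in each of the 4 mice, as had 8.11% of all genes.

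Seen across tumors, the members spanned a narrower range in the primary tumors than in the metastases. The members' median deviation from their 13-tumor means was -0.12, -0.26, -0.05 and -0.22 in the primary tumors of mice 1 to 4 and -0.24, -0.33 and -0.26 in those of mice 5 to 7. It was 0.23, 0.40 and 0.14 in the mouse 1 metastases and 0.27 in that of mouse 2. In the other 5 metastases it lay between -0.17 and 0.02, within or just above the range of the primary tumors. The primary tumor of mouse 3, at -0.05, was the highest of the 7.

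Compared by subcomplex in the 13 tumors, the single-strand binding and clamp genes had the largest median differences, and the origin, histone placing and clamp loader genes the smallest. The median log2 difference over the 13 tumors was 0.81 for Pcna alone, 0.51 for the 3 genes of replication protein A, 0.45 for the 2 of the kinase, 0.36 for the 5 of polymerases delta and epsilon, 0.33 for the 3 of CDC45 and GINS, 0.28 for the 4 of polymerase alpha-primase, 0.27 for the 2 of Okazaki fragment maturation, 0.19 for the 6 of the origin recognition complex, 0.19 for Chaf1b and 0.11 for the 5 of replication factor C. With 1 to 6 genes each, these medians are descriptions, and over all 16 tumors the kinase, at 0.54, was above replication protein A, at 0.51. Within every group that had 2 or more members the members were farther apart than neighbouring medians in this order, as in replication factor C with Rfc4 and Rfc3, or polymerase alpha-primase with Pola1 and Pola2. Subcomplexes also differed by metastasis: in the mouse 2 liver metastasis polymerase alpha-primase had a median log2 ratio of 0.84 and polymerases delta and epsilon 0.13, whereas in the second body wall metastasis of mouse 1 they had 0.59 and 0.69.

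The promoters of the members were read for the letters of cell cycle motifs, because many of these transcripts were high in the same metastases. In RefSeq windows of mouse build GRCm38.p6, 29 of the 35 members had a window, 27 of them measured members. The 250 bases before the start were searched on both strands. The E2F letters TTTGGCGC, TTTCGCGC, TTTCCCGC or TTTGGCGG were in 7 of the 29 members (24.1%) against 2.26% of all 27025 genes. The CCAAT box (CCAAT) was in 16 (55.2%) against 37.5%, and the CHR element (TTTGAA) in 5 (17.2%) against 18.3%. Gins3 and Chaf1a, which were not measured, held E2F letters and a CCAAT box. Of the 10 measured members with a window that were higher at an unadjusted p under 0.05 in limma, 7 held CCAAT and 1 CHR. Of the 17 other measured members with a window, 7 held CCAAT and 3 CHR. The E2F letters were in 2 of those 10 and in 3 of those 17. The stretches around the match are shown for the 5 measured members that held one, to set Pola1 and Rpa1, which were higher at that p, beside Orc1, Orc3 and Rfc3, which were not; each is on the strand of its gene, with the E2F letters or their reverse complement in capitals. Pola1 is at chrX:93632261-93632318 (minus strand), Rpa1 at chr11:75348568-75348625 (minus), Orc1 at chr4:108579402-108579453 (plus), Orc3 at chr4:34614951-34615008 (minus) and Rfc3 at chr5:151651209-151651243 (minus).
Pola1: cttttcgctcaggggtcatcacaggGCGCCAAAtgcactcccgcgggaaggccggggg
Rpa1: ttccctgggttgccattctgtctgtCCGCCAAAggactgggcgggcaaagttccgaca
Orc1: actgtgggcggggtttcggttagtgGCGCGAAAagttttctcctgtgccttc
Orc3: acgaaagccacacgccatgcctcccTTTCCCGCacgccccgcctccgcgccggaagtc
Rfc3: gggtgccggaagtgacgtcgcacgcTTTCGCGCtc
A match of letters is a description and not a binding site, and the absence of these letters from the window of Pcna, Prim1 or Rfc4 says nothing of the factor.

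Other genes of DNA replication had differences of the same direction. Of 39 further genes, such as those of the MCM helicase, its loading factors and nucleotide synthesis, 32 were measured, 29 were higher in the 13 tumors and 12 of these had an unadjusted p under 0.05, with 0 lower at that p, none past adjustment and a median of 0.37. The 10 of smallest p were Tk1 (0.67), Tipin (0.87), Rrm2 (1.29), Cdt1 (0.91), Mcm6 (1.23), Mcm7 (0.89), Mcm5 (0.71), Gmnn (0.91), Recql4 (0.35) and Mcm4 (0.68), with log2 differences in parentheses. Over all 16 tumors Tipin, a partner of the fork protection factor Timeless, and Rrm2, the small subunit of ribonucleotide reductase, rose at limma adjusted p of 0.0260 and 0.0393. For the mitotic cell cycle, 18 of 19 measured genes had higher means, 15 at an unadjusted p under 0.05, with a median of 1.25.

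The mitotic genes had the larger ratios in each metastasis, and they too were highest in mice 1 and 2. Their median log2 ratio was 2.01, 2.13 and 1.54 in mouse 1 and 1.64 in mouse 2, then 0.24, 0.79 and 0.47 in mouse 3 and 0.16 and 0.19 in mouse 4. The other replication genes had 0.63, 0.94 and 0.47, then 0.82, then -0.05, 0.14 and 0.15, then 0.06 and 0.09. The members' medians above were lower than those of the mitotic genes in all 9 metastases.

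**Figure D4:**
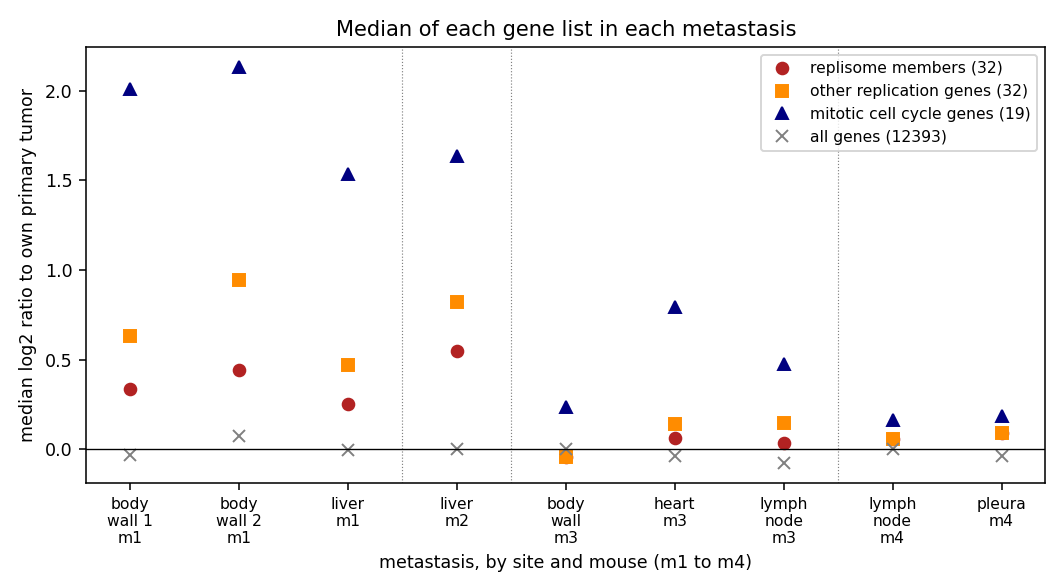
Median log2 ratio to the own primary tumor on the y axis for 4 gene lists in each of the 9 metastases; the number of genes is in the legend. The replisome members, red circles, lie at 0.25 to 0.55 in mice 1 and 2 and at -0.04 to 0.09 in mice 3 and 4, under the mitotic genes throughout, and all genes stay near 0.

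Markers of other cells differed between the same tumors. The 10 endothelial markers had summed intensities of 1182 to 1971 in the primary tumors and 831 to 1651 in the metastases. All 10 had log2 differences below 0 in the 13 tumors. Their median log2 ratio was -0.40, -0.58 and -0.49 in the mouse 1 metastases and -1.0 in the mouse 2 metastasis, against -0.19 to 0.35 in mice 3 and 4. The 8 macrophage markers had sums of 4073 to 7843 and 1265 to 6764, with 5 log2 differences below 0. Their median ratios were -0.43, -0.47, -0.54 and -0.69 in mice 1 and 2 against -0.13 to 0.38 in mice 3 and 4. The 7 hepatocyte markers measured had sums of 467 to 1428 and 408 to 9300, with medians of 0.43, 2.46, 3.85 and 1.88 in mice 1 and 2 and -0.79 to 0.13 in mice 3 and 4. These 3 lists therefore parted mice 1 and 2 from mice 3 and 4 as Pcna, Prim1 and Orc6 did, and their part in the members' ratios was not tested.

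The remaining lists did not divide the mice in that way. All 9 alveolar type 2 markers were lower, with summed intensities of 20188 to 55122 in the primary tumors and 3519 to 31815 in the metastases, and all 6 club cell markers, with sums of 2095 to 6409 and 423 to 941. The 8 lymphocyte markers had sums of 459 to 745 and 371 to 839, with Cd3d below that lower quartile in every tumor. The 10 muscle markers had sums of 315 to 416 and 325 to 3007, with their highest median log2 ratio, 1.66, in the heart metastasis of mouse 3. No marker of any list was at the floor in all tumors. Whether these cells contributed replisome RNA was not tested.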

How the data were processed

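RNA from 16 tumors was hybridised to Affymetrix Mouse Expression Array 430A 2.0. The deposited values are linear intensities that the authors computed in dChip (PM/MM difference model, invariant set normalization). Here 64 control probe sets were dropped, intensities under 1 were raised to 1 and log2 was taken. Of 22626 probe sets, 20380 carried 1 gene symbol in the platform annotation, 691 several and 1555 none. limma 3.58.1 in R 4.3.3 was fitted to all probe sets with Benjamini-Hochberg adjustment: 13 tumors with the mouse as a fixed block, 16 tumors with the mouse as a random block (correlation 0.238), and an F test of the mouse by tissue interaction. Counts of genes use the brightest probe set. The labels pair tumors by mouse; metastases correlated with their own primary tumor at -0.002 to 0.401, highest for the own one in 6 of 9. Full statistics are given for the 10 members of smallest p and the leading member of each group, and of other replication genes the 10 of smallest p. Alternatives covered pairing, floors, filters, scaling, the test, the probe set rule and left-out tumors; leaving tumors out of the 16-tumor fit was chosen after seeing the data. The fits were tested on simulated data. Members and lists were chosen with earlier results of these data known. P-values measure the spread between these tumors, and those of the fit to 13 tumors do not measure the spread between mice.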

Additional observations from a re-analysis of the deposited data

Results flagged for a closer look

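In each of the 32 members the highest and the lowest of the 7 primary tumors and of the 9 metastases were compared with the nearest other tumor by Dixon's ratio of that gap to the whole range, both on the log2 scale, and 2 of 64 groups held a tumor apart. Chance sets apart about 1 in 20 groups. The liver metastasis of mouse 2 had a Pola1 intensity of 107, with the next metastasis at 63.5 and a ratio of 0.565. The primary tumor of mouse 6 had an Rfc3 intensity of 51.6, with the next primary tumor at 84.6 and a ratio of 0.578.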

How the results depend on the processing

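The members' median log2 difference was 0.25 to 0.30 under 11 other settings and 0.19 to 0.35 in the leave-one-out fits, and 342 of 352 single values under the settings and 372 of 384 under leave-one-out had the direction of the 13-tumor fit with the mouse block. The 11 members higher at an unadjusted p under 0.05 became 5 with no replicate block, so that tumors were not paired by mouse, and 5 with 1 mean ratio per mouse, and ran from 4 (without mouse 1) to 12 on leaving out each mouse or metastasis in turn. No member passed an adjusted p of 0.05 in limma over the 13 tumors, in any leave-one-out fit included (0 to 0), 1 did over all 16 tumors and 2 did by the methods' t-test, Orc4 (adjusted p = 0.0280) and Pole2 (0.0288), which takes metastases of 1 mouse as independent pairs. In the 16-tumor fit, leaving out each tumor in turn gave 0 to 2 members past adjustment and 9 to 16 at an unadjusted p under 0.05. The 4 members that differed between mice were 2 without mouse 2. For these counts at an unadjusted p, the shares of all genes in the alternative fits are not given here. Some members changed direction: with all 16 tumors Orc2 (0.15), Pola2 (-0.027), Pold3 (0.15), Rfc2 (0.033) and Fen1 (-0.091), with quantile normalization Orc2 (0.0029), with 1 mean ratio per mouse Fen1 (-0.014), with the methods' t-test Pola2 (-0.0245), and with the mean of a gene's probe sets Orc3 (-0.21) and Rfc3 (0.094). In leave-one-out fits Prim2 ran from -0.017 to 0.19, Gins4 from -0.023 to 0.21, Pola2 from -0.096 to 0.070, Fen1 from -0.061 to 0.075, Orc2 from -0.096 to 0.0026 and Pold3 from -0.21 to 0.15. The cause of these changes was not tested. Among the brightest probe sets, signal over background limits Rfc4 most, which was dim in all primary tumors.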
